A study of Mus musculus with 4 samples.

Results

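The 56 genes described here encode nucleolar and ribosome biogenesis factors: RNA polymerase I subunits and rDNA regulators (8 genes), box C/D snoRNP proteins (4), box H/ACA snoRNP proteins (4), factors of the small subunit (SSU) processome (23), factors of late 40S maturation (5) and factors of 60S assembly (12). They were chosen by gene symbol for their known roles, and their transcript models were summed per gene ID. All 56 were found among the 17945 genes of the deposited table, carried by 106 of its 48574 transcript models, and all 56 were among the 13426 genes that passed the filter on low counts. The libraries came from mouse germinal vesicle oocytes, which are held in meiotic prophase and still have their nucleus, taken from unprimed female mice on postnatal day 20 and kept from resuming meiosis with milrinone. Oocytes with a surrounded nucleolus (SN), in which condensed chromatin encloses the nucleolus, were compared with oocytes with a non-surrounded nucleolus (NSN), with 2 libraries and 15 oocytes in each class. No treatment or allele separated the classes, and the mouse strain is not given in the labels. The class of each live oocyte was predicted by the Fluo-Cast-Bright image pipeline from bright-field images, not read from stained DNA.

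RNA polymerase I transcribes the ribosomal DNA in the nucleolus, and box C/D and box H/ACA particles methylate and pseudouridylate the resulting pre-rRNA. The SSU processome folds and cleaves the precursor of the 40S subunit, while other assembly factors build the 60S subunit and the last 40S steps take place in the cytoplasm. In mouse oocytes growth is accompanied by active rDNA transcription, and the SN configuration is known for transcriptional silence, RNA polymerase I included. The values below are levels of the factors' own mRNAs, captured with oligo(dT), and not of ribosomal RNA or of the proteins. In such pooled libraries fewer cells with a transcript and less of it per cell cannot be told apart.

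The libraries held 37023401 and 36922573 estimated counts in SN and 32307398 and 32541920 in NSN. Summed levels of 12 oocyte markers were 29135 and 26981 TPM (a level per transcript length, scaled to the same sum in each library) in SN, against 26676 and 25958 TPM in NSN. All 13 granulosa cell markers had counts, with sums of 118 and 140 TPM in SN and 146 and 132 TPM in NSN, of which Esr2 and Cyp19a1 made up most. Among the scarcer ones NSN replicate 1 stood apart, with Inha at 12.3 TPM there, against 3.48 and 7.02 TPM in SN and 4.79 TPM in NSN replicate 2, and with its Gja1, Hsd17b1 and Fst also above the other 3 libraries. Of 9 theca and stroma markers 8 had counts, summing to 3.52 and 3.74 TPM in SN against 4.60 and 5.46 TPM in NSN. Cyp17a1 had no deposited values. Of 8 blood, immune and endothelial markers 7 had counts, and Cdh5 had no deposited values. Their sums were 11.6 and 14.2 TPM in SN against 9.15 and 9.72 TPM in NSN, with Pecam1 the largest part. The globin genes Hba-a1 and Hbb-bt had counts in SN alone, Hba-a1 at 1.87 and 2.75 TPM. Hbb-bs had 0.22 and 0.57 TPM in SN and 0 and 0.1 TPM in NSN. The part of these cell types in the results was not tested. The labels do not say that replicates came from separate animals, so a p-value here reflects no more than the spread of the 4 libraries, possibly technical.

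The members' fold changes between SN and NSN oocytes lay on both sides of 0. With all 4 libraries no member passed edgeR's quasi-likelihood test at an adjusted p of 0.05, against 0 of all 13426 genes tested (0%). On the scale of CPM (counts scaled to the library total) with TMM factors, 30 members were higher in SN and 26 lower, or 53.6% higher, against 48% of all genes tested. The median log2 fold change of SN over NSN was 0.044 for the members and -0.011 for all genes, and single members ranged from -0.66 to 0.43. With scaling by library size alone the all-gene median was -0.15, 8 of the 56 members were higher in SN and their median was -0.099. On the log2(TPM + 1) scale the all-gene median was -0.13 and 3 members were higher. The median of all genes thus lay below 0 on both scales. Nucleolin (Ncl), Llph and Wdr12 were the members with the smallest p among those higher in SN, and Ubtf and Nol11 among those lower. These were the 5 members with an unadjusted p under 0.05, 8.93% of the 56, against 7.48% of all genes tested. The 3 higher in SN stood against 4.01% of all genes, and the 2 lower against 3.46%. DESeq2, which gave an adjusted p to 672 genes, called 1 of the 3 members among them, Ncl, against 6.99% of those genes. limma-voom called 0 members and 0 of all genes tested. It put 5 of the 56 members under an unadjusted p of 0.05, against 1026 of the 13426 genes tested.

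Levels of the members spread over several orders of size. Their mean levels over the 4 libraries ran from 0.975 TPM for Nop2, a methyltransferase of the large subunit rRNA, to 752 TPM for Emg1, a methyltransferase of the small subunit rRNA. The median member stood at 17.9 TPM and the median tested gene at 6.23 TPM. Below 5 TPM lay 17 members, and 6 reached 100 TPM or more, namely Emg1, Imp3, Llph, Nop10, Imp4 and Nhp2. This order was alike in every library, with Pearson correlations of the members' log2 TPM between 0.988 and 0.996 for the pairs of libraries within and across the classes. Those correlations are across genes, which are not independent replicates, and they share the annotation and its transcript lengths.

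**Figure D1:**
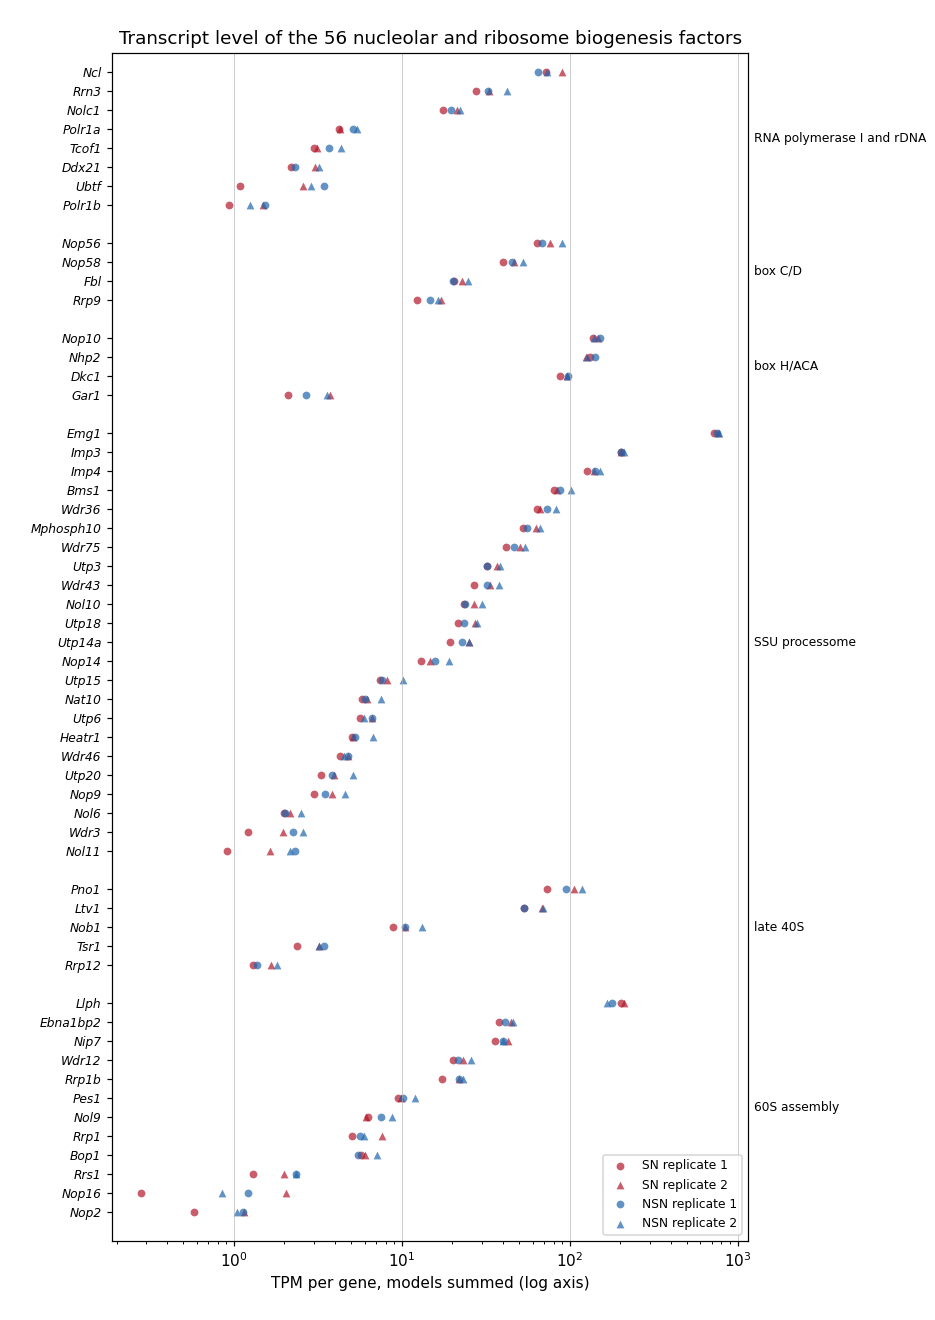
Level of each of the 56 members in TPM on a log axis, by role, with a red mark for each SN library and a blue mark for each NSN library. The 4 marks of a gene lie close together compared with the spread between genes, from Nop2 at a mean of 0.975 TPM to Emg1 at 752 TPM.

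The genes themselves share features that do not depend on the libraries. Of the 56 members, 6 host an intronic snoRNA gene in the GENCODE annotation, or 10.7%, against 1.38% of the 12855 tested genes matched by name. These hosts were Ncl, Nop56, Nop58, Dkc1, Wdr43 and Tsr1, so that Ncl carries Snord82 and Nop56 carries Snord110 in an intron. Promoter windows of 300 bases around the start (RefSeq, build GRCm38.p6) were found for 48 members. The E-box CACGTG, on either strand, lay in 12 of the 48, or 25%, against 11.1% of 10812 tested genes, and the ETS motif CCGGAAG lay in 19, or 39.6%, against 19.0%. The SP1 motif GGGCGG was as frequent in members (64.6%) as in tested genes (63.6%), as was CCAAT (43.8% and 43.6%), and GC content was 57.7% and 59.7% at the median. The other motifs searched were NRF1 (2.08% of members and 2.16% of tested genes), YY1 (2.08% and 4.94%) and the TATA box (8.33% and 9.83%). These motifs can overlap one another, and a match is a description of letters, not of binding.

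The 250 bases before the start of 4 members are printed 5′ to 3′ on the gene's strand, with E-box and ETS matches in capitals. They show a repeated E-box in the most abundant member of the polymerase I group after Ncl. They also show an E-box and an ETS match in the scarcest member and a repeated ETS match in the most abundant member. The member with the most negative fold change, Nol11, has an E-box. Ubtf and Wdr3, the next most negative at -0.65 and -0.45, have none in their windows. The windows are chr16:13780449-13780698 on the plus strand for Rrn3, chr6:125131633-125131882 on the plus strand for Nop2, chr6:124712179-124712428 on the minus strand for Emg1 and chr11:107189382-107189631 on the minus strand for Nol11. The same ETS letters thus stand before the most and the least abundant member.
Rrn3: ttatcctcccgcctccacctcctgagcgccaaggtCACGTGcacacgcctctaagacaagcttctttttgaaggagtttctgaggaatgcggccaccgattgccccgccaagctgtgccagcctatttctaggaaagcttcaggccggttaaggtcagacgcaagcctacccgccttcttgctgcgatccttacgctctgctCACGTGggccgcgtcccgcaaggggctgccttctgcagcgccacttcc
Nop2: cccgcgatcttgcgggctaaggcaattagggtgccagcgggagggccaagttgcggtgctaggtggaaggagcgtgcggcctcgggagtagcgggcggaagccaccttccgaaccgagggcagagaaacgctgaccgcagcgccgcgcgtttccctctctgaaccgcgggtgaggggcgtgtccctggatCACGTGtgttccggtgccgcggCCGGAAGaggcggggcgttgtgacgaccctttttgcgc
Emg1: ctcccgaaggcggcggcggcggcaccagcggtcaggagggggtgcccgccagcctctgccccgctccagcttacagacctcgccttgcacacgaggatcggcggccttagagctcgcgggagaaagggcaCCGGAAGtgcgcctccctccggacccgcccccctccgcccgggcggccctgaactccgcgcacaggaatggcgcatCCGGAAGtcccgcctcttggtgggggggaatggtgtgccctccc
Nol11: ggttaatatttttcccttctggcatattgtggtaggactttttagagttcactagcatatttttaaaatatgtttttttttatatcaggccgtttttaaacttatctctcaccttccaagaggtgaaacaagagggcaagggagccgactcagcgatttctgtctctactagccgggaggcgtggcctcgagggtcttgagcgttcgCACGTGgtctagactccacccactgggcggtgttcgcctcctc

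Among the 8 members of rDNA transcription, Ncl had the highest level at a mean of 75.0 TPM. Some pathway genes outside the members were higher, Polr1d at 1024 TPM among them. Ncl encodes a histone-binding nucleolar protein also needed for the first cleavage of pre-rRNA. Its abundance was 353 and 376 CPM in SN libraries, against 272 and 284 CPM in NSN libraries. Both SN libraries stood above both NSN libraries, by 0.39 on the log2 scale (SE 0.10), with an unadjusted p of 0.0028 and an adjusted p of 0.633 in edgeR's quasi-likelihood test. Its levels per length were 72.6 and 89.4 TPM in SN and 64.3 and 73.6 TPM in NSN, and on this scale the classes overlapped. DESeq2 placed the Ncl difference at 0.40 with a p of 0.00804, adjusted over the 672 genes it left after its own filter.

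Ubtf, the upstream binding factor that opens rDNA for RNA polymerase I, had a mean level of 2.49 TPM. Its abundance was 3.04 and 5.88 CPM in SN, against 8.04 and 6.06 CPM in NSN. Both SN libraries lay below both NSN libraries, but the nearest values of the classes, those of the replicate 2 libraries, nearly met. The log2 fold change was -0.65 (SE 0.29), with an unadjusted p of 0.0473 and an adjusted p of 0.662 by edgeR. Without SN replicate 1 it was -0.25, and without SN replicate 2 it was -1.21 with an adjusted p of 0.00254 by edgeR, a fit that called 2.09% of all genes. In those fits the lone SN library is assumed to vary as the NSN libraries do.

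The mRNAs of the catalytic subunits of RNA polymerase I were both scarce, and neither passed the test. Polr1a, the largest subunit, had 4.25 and 4.31 TPM in SN and 5.09 and 5.37 TPM in NSN, while Polr1b, the second largest, had 0.94 and 1.48 TPM in SN and 1.54 and 1.25 TPM in NSN. On the CPM scale their log2 fold changes were -0.06 (95% interval -0.34 to 0.22) for Polr1a and -0.03 (-0.62 to 0.57) for Polr1b, and the classes overlapped for both genes. Per length the SN libraries of Polr1a lay below its NSN libraries. The mRNA of Rrn3, which makes the polymerase competent to initiate, was far more abundant than that of either subunit. It had 27.7 and 32.9 TPM in SN against 32.5 and 42.2 TPM in NSN. The classes overlapped for Rrn3 on the CPM scale, with a log2 fold change of -0.12 (-0.35 to 0.11). Tcof1 (treacle), which joins rDNA transcription to pre-rRNA modification, had 10.8 and 9.72 CPM in SN and 11.3 and 12.1 CPM in NSN. Its SN libraries lay below its NSN libraries, with a log2 fold change of -0.19 (SE 0.16) and an adjusted p of 0.782 by edgeR. Nolc1, a chaperone of snoRNPs, differed by 0.06 (SE 0.10), and the RNA helicase gene Ddx21 by 0.10 (SE 0.19).

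The mRNAs of the box C/D proteins were present at unequal levels that the classes shared. Nop56 had 63.9 and 75.9 TPM in SN and 68.4 and 90.0 TPM in NSN, Nop58 averaged 45.9 TPM over the 4 libraries, and the methyltransferase fibrillarin (Fbl) averaged 22.0 TPM. The ratio of Nop56 to Fbl was 3.14 and 3.33 in SN and 3.38 and 3.63 in NSN, although the core particle holds these proteins together. Log2 fold changes on the CPM scale were -0.0021 for Nop56 (95% interval -0.23 to 0.23), -0.0059 for Nop58 (-0.22 to 0.20) and 0.11 for Fbl (-0.19 to 0.41). Rrp9, the protein specific to the U3 snoRNP, averaged 15.1 TPM and differed by 0.09 (SE 0.15).

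Of the 4 core genes of the box H/ACA particle, 3 had abundant mRNAs and the fourth did not. Nop10 averaged 144 TPM, Nhp2 131 TPM and the pseudouridine synthase dyskerin (Dkc1) 94.5 TPM, against 3.02 TPM for Gar1. Gar1 had 2.09 and 3.73 TPM in SN and 2.68 and 3.56 TPM in NSN, so the classes overlapped. Nop10 exceeded Gar1 by 65.6 and 39.4 times in SN and by 56.7 and 38.9 times in NSN. All 4 H/ACA genes were higher in SN on the TMM scale, by 0.06 to 0.12 with a median of 0.10, but this median was -0.04 with scaling by library size and -0.07 on the log2(TPM + 1) scale. Leaving out NSN replicate 1 gave 0.22, leaving out NSN replicate 2 gave 0.01, and the fit with SN replicate 2 left out gave 0.16. None of the 4 reached an unadjusted p under 0.05.

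The SSU processome genes formed the largest group, with 13 of 23 higher in SN and a median log2 fold change of 0.04 on the TMM scale. That median was -0.11 with scaling by library size, -0.14 on the log2(TPM + 1) scale and -0.04 without NSN replicate 1, while leaving out NSN replicate 2 gave 0.07 and leaving out SN replicate 1 gave 0.02. Nol11, whose promoter is among those printed, is a vertebrate partner of the UTP-A subcomplex that links rDNA transcription to processing. It had 2.23 and 3.52 CPM in SN, against 4.91 and 4.20 CPM in NSN. Both SN libraries lay below both NSN libraries, by -0.66 on the log2 scale (SE 0.28), with an unadjusted p of 0.0362 and an adjusted p of 0.662 by edgeR. Without SN replicate 1 the difference was -0.37, and without SN replicate 2 it was -1.02. Wdr3, a UTP-B subunit, had 3.32 and 4.59 CPM in SN and 5.30 and 5.49 CPM in NSN. Its classes did not overlap either, with a log2 fold change of -0.45 (SE 0.24) and an unadjusted p of 0.0882 by edgeR. Wdr3 shares 820 exon bases, 15.7% of its own, with the opposite-strand gene Spag17, and reads from the shared bases cannot be told apart where the strand was not used in counting, which the labels do not state.

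Within the subcomplexes of the processome the subunit mRNAs differed widely in level. The complexes and the subunits compared were picked after their values were seen, and not all subunits are given. In UTP-B, Wdr36 averaged 71.7 TPM and Wdr3 2.0 TPM, a ratio of 52.2 and 34.3 in SN and 32.3 and 32.4 in NSN. In UTP-A, Wdr75 averaged 48.2 TPM, the large scaffold gene Heatr1 5.53 TPM and Nol11 1.75 TPM. The Mpp10 trio was more even, with Imp3 at 204 TPM, Imp4 at 139 TPM and Mphosph10 at 59.6 TPM. Heatr1 had 27.9 and 24.7 CPM in SN and 25.0 and 29.3 CPM in NSN, with overlapping classes and a log2 fold change of -0.05 (95% interval -0.33 to 0.24). Emg1 had 726 and 760 TPM in SN and 750 and 775 TPM in NSN, and on the CPM scale it differed by 0.13 (SE 0.11). Of the exon bases of Emg1, 7.21% are shared with Lpcat3 on the opposite strand.

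Of the 5 late 40S factors 1 was higher in SN on the TMM scale, and the group's median was -0.08. Pno1, which guides the nuclease of the last 18S cleavage, averaged 98.0 TPM, while that nuclease, Nob1, averaged 10.7 TPM. Pno1 exceeded Nob1 by 8.23 and 10.1 times in SN and by 9.11 and 9.01 times in NSN. Ltv1, an adaptor of 40S head assembly, had 71.2 and 78.5 CPM in SN and 61.8 and 72.8 CPM in NSN. Its classes overlapped, with a log2 fold change of 0.15 (SE 0.11) on the CPM scale and of -0.01 on the log2(TPM + 1) scale. Rrp12, an export factor, was the scarcest of the group at 1.53 TPM and differed by -0.01 (SE 0.21). Without SN replicate 1 the median of the group was 0.06, without NSN replicate 1 it was -0.14, and without NSN replicate 2 it was -0.0017. It was -0.22 with scaling by library size and -0.19 on the log2(TPM + 1) scale. Tsr1 shares 1240 exon bases, 32.3% of its own, with Srr on the opposite strand.

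Among the 60S assembly genes 7 of 12 were higher in SN, with a median log2 fold change of 0.09 on the TMM scale and of -0.10 on the log2(TPM + 1) scale. That median was 0.15 without SN replicate 1, 0.04 and 0.06 with NSN replicate 1 or NSN replicate 2 left out, 0.03 by limma-voom, 0.05 after cyclic loess scaling and -0.05 with scaling by library size. Llph, a small nucleolar protein gene, had the smallest p of all members. It had 164 and 150 CPM in SN, against 126 and 107 CPM in NSN. Both SN libraries stood above both NSN libraries, by 0.43 on the log2 scale (SE 0.11), with an unadjusted p of 0.0014 and an adjusted p of 0.609 by edgeR. The classes were apart for Llph per length as well, at 201 and 211 TPM in SN and 178 and 166 TPM in NSN. Without SN replicate 2 the difference was 0.50, and in the other leave-outs it was 0.32 to 0.55.

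Wdr12, Pes1 and Bop1 form the PeBoW complex, which acts on the large subunit precursor. Wdr12 had 116 and 89.1 CPM in SN, against 81.4 and 73.9 CPM in NSN. Both SN libraries stood above both NSN libraries, by 0.40 on the log2 scale (SE 0.12), with an unadjusted p of 0.0070 and an adjusted p of 0.662 by edgeR. Per length the order was not kept, with 20.2 and 23.2 TPM in SN and 21.7 and 25.7 TPM in NSN, a log2(TPM + 1) difference of -0.12. Without SN replicate 2 the CPM difference was 0.58, and without SN replicate 1 it was 0.20. Its partners differed by -0.02 for Pes1 (95% interval -0.30 to 0.26) and by 0.09 for Bop1 (-0.28 to 0.45). The level of Wdr12 exceeded that of Bop1 by 3.53 and 3.87 times in SN and by 3.97 and 3.64 times in NSN. Nop2, the scarcest member, had 0.58 and 1.15 TPM in SN and 1.13 and 1.04 TPM in NSN, and its log2 fold change of -0.17 had a wide interval (-0.99 to 0.65).

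**Figure D2:**
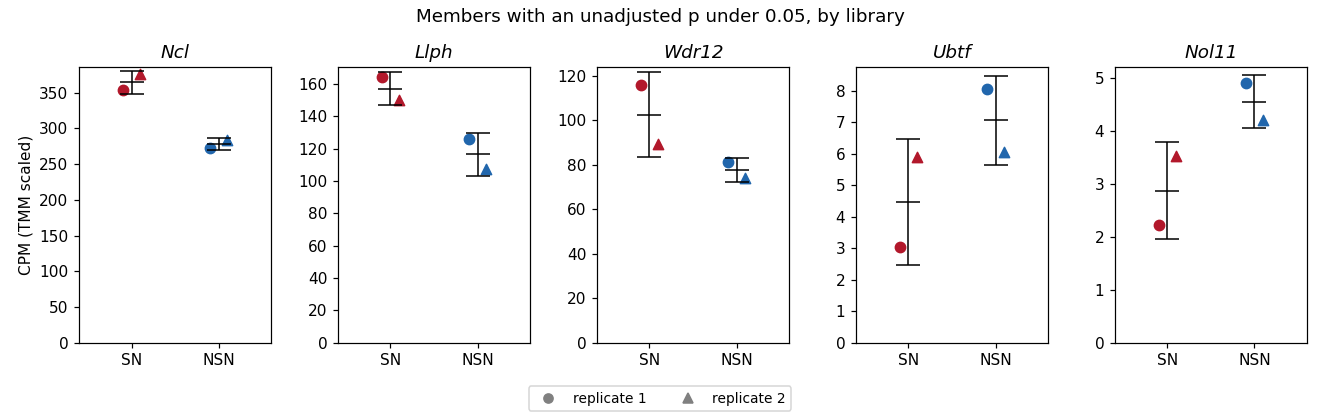
Abundance in CPM of the 5 members with an unadjusted p under 0.05, with 1 point per library and bars for the mean and SD of the 2 libraries of each class. For Ncl, Llph and Wdr12 both SN points lie above both NSN points, and for Ubtf and Nol11 below, with SN replicate 2 of Ubtf at 5.88 CPM next to an NSN library at 6.06 CPM.

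Across the 56 members the 2 SN libraries lay above both NSN libraries in 11, or 19.6%, against 18.3% of all genes tested, and below both in 8, or 14.3%, against 20.7%. Together these were 33.9% of the members, against 39% of all genes tested. The standard errors of single members ran from 0.09 to 0.74 and were widest in the scarcest genes, Nop16 among them with a 95% interval of -1.44 to 1.98.

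**Figure D3:**
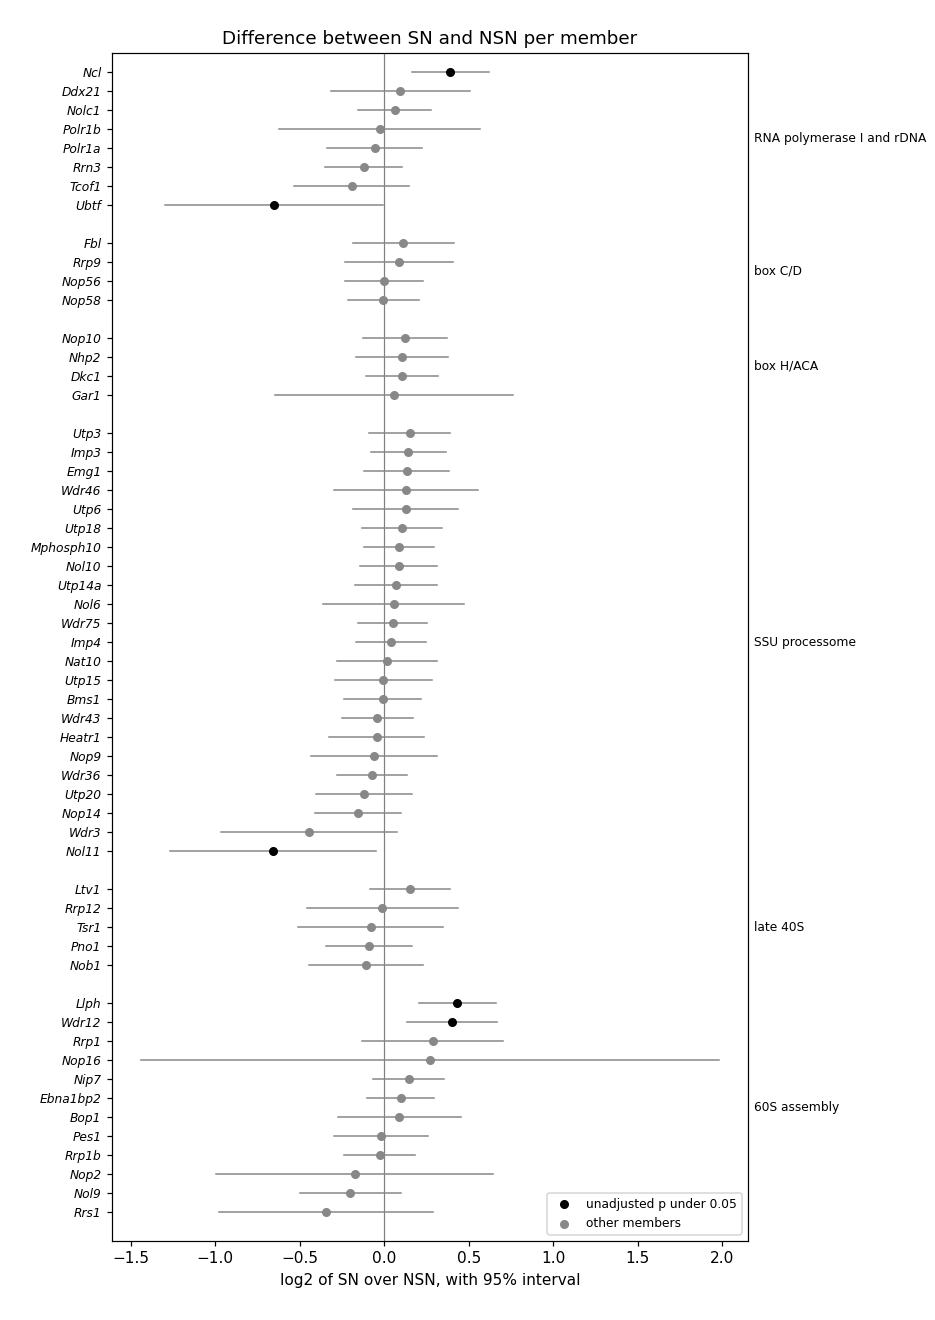
Log2 fold change of SN over NSN for each member with its 95% interval, by role, black where the unadjusted edgeR p is under 0.05. The values run from -0.66 for Nol11 to 0.43 for Llph, and most intervals include 0.

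The fold changes of all genes moved with abundance, and the members are set here beside genes of like abundance. Genes with a mean log2 CPM of 0 to 2 had a median of -0.05, those of 2 to 4 had -0.06, those of 4 to 6 had -0.02, those of 6 to 8 had 0.03, those of 8 to 10 had 0.13, and those of 10 and over had 0.26, with 98.4% of the last higher in SN. The 17 members between 6 and 8 had a median of 0.09, the 16 between 4 and 6 had 0.0052, the 14 between 2 and 4, Ubtf among them, had 0.02, and the 6 between 0 and 2, Nol11 among them, had -0.10. Ncl and Emg1, with Bms1, were the 3 members between 8 and 10. After cyclic loess scaling, which centres the fold change at each abundance and was chosen after seeing the data, the difference was 0.28 for Ncl, 0.38 for Llph and 0.37 for Wdr12, each with SN higher, and -0.0017 for Emg1.

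**Figure D4:**
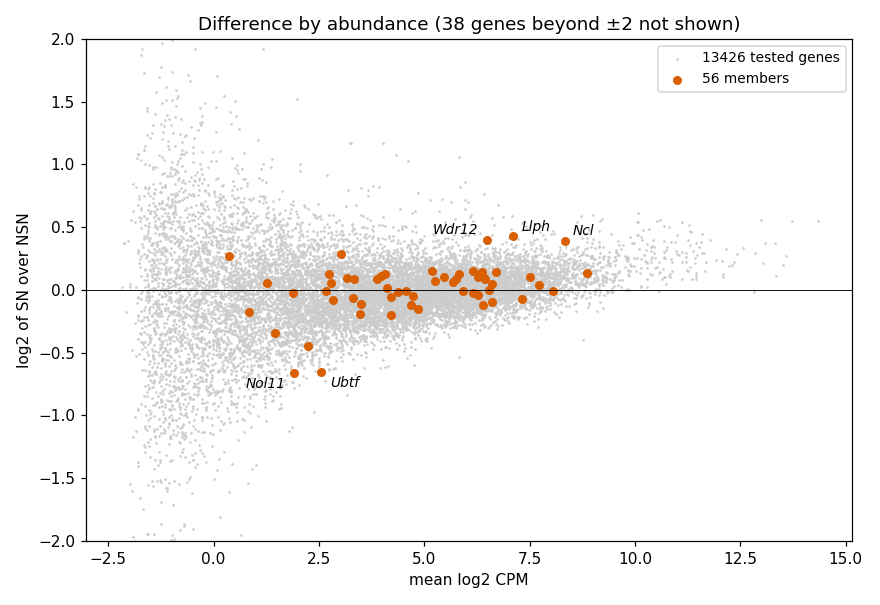
Log2 fold change of SN over NSN against mean log2 CPM for the 13426 genes tested (grey) and the 56 members (orange), with 38 genes beyond 2 in either direction not drawn. The grey cloud rises above 0 at its abundant end, and all members lie within its range, with Ncl, Llph and Wdr12 in its upper part and Ubtf and Nol11 in its lower part.

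The members together took 0.331% and 0.365% of all estimated counts in SN and 0.349% and 0.370% in NSN. After TMM scaling their summed abundance was 3697 and 3618 CPM in SN and 3398 and 3438 CPM in NSN, a log2 ratio of the class means of 0.10. Summed per length they came to 2573 and 2832 TPM in SN and 2722 and 2919 TPM in NSN, a log2 ratio of -0.06. The sign of the sum thus changed with the scale, and the classes overlapped in TPM.

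At the level of transcript models, 28 members had a single model and 28 had more, and 90 of the 106 models passed the filter. No model was called by edgeR's quasi-likelihood test, against 0% of the 29835 models tested, and 8 had an unadjusted p under 0.05, or 8.89%, against 6.47% of all. DESeq2 called 5 of the members' models, and 4.93% of all. In the authors' deposited table, 14 of the 106 models had an unadjusted p under 0.05, 9 of them higher in SN and 5 lower, or 13.2%, against 8.36% of all models with a p. These 14 came from 8 members, and those of Wdr12, Tcof1 and Dkc1 went in both directions. RSEM splits reads between models by likelihood, and the error of that split is not in these tests.

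The models of Wdr12 differed in opposite directions. The curated model NM_021312.5 had 2.39 and 4.39 TPM in SN, against 10.1 and 9.37 TPM in NSN. Both SN libraries lay below both NSN libraries, with a log2 fold change of -1.39 (SE 0.30), an unadjusted p of 0.0123 and an adjusted p of 0.696 by edgeR. DESeq2 gave it an adjusted p of 0.000714, and the authors' deposited table an unadjusted p of 3.94e-06. The predicted model XM_017321861.2 had 5.75 and 4.19 TPM in SN, against 3.40 and 3.05 TPM in NSN, the opposite order. The 3 models with effective lengths of 8134 to 8278 bases together made up 74.3% and 46.1% of the Wdr12 TPM in SN and 44.5% and 29.6% in NSN. This grouping by length was made after the values were seen and was not tested. Another curated model, NM_001199061.1, was listed at 0 in the replicate 1 library of both classes and at 5.90 TPM in SN replicate 2 and 6.29 TPM in NSN replicate 2, so the split among the short models followed the replicate number as well. A long model yields more counts per molecule than a short one, and the gene's CPM and TPM therefore need not move together.

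**Figure D5:**
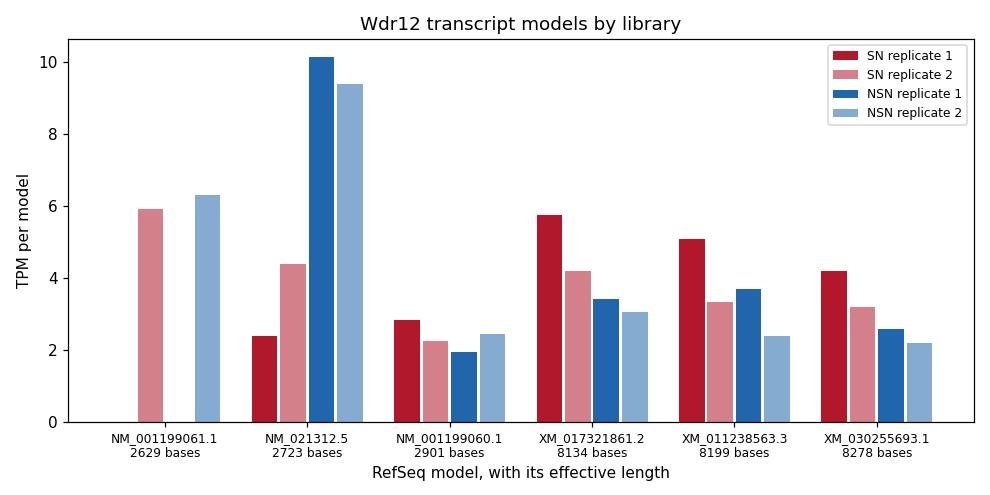
TPM of each of the 6 Wdr12 transcript models in each library, ordered by effective length in bases. NM_021312.5 is lower in both SN libraries (2.39 and 4.39 TPM) than in the NSN libraries (10.1 and 9.37 TPM), and the long models are higher in SN replicate 1 than in any other library.

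The other members with a model among the 4 with the smallest p were Ncl, Llph and Tcof1. The predicted Ncl model XM_006529238.3 had 56.7 and 70.9 TPM in SN and 48.8 and 56.1 TPM in NSN, with a log2 fold change of 0.44 (SE 0.08) and an adjusted p of 0.696 by edgeR. DESeq2 called this model at an adjusted p of 9.22e-06. The main Llph model, NM_025431.2, had 194 and 202 TPM in SN and 173 and 159 TPM in NSN, so that nearly all of the gene's level lay in this model. The Tcof1 model XM_011246874.2 had 0.80 and 1.43 TPM in SN and 0.29 and 0.43 TPM in NSN. It was higher in SN, with a log2 fold change of 1.78 (SE 0.47), while the gene as a whole was not, and its adjusted p was 0.696 by edgeR. Another predicted Tcof1 model, XM_011246875.2, went the other way, with 1.77 and 1.47 TPM in SN and 3.39 and 2.73 TPM in NSN. The effective lengths of these 2 models were alike, at 4327 and 4203 bases.

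The 101 other genes of the pathway, listed by role, gave a like picture in calls and median fold change, but not in separation. Both SN libraries lay above both NSN libraries in 29, or 28.7%, against 19.6% of the members and 18.3% of all genes tested. Among all genes this share was 13.3% at a mean log2 CPM of 2 to 4, 28.1% at 6 to 8 and 65.6% at 10 and over. The median log2 CPM was 4.95 for the list, 4.79 for the members and 3.68 for all genes. Abundance was not matched in this comparison. The SN libraries lay below both NSN libraries in 16, or 15.8%, against 14.3% of the members and 20.7% of all genes. All 101 were tested, 0 were called by edgeR or limma-voom, and 0 of the 10 with a DESeq2 adjusted p, 56 were higher in SN, and their median log2 fold change was 0.02. An unadjusted p under 0.05 was reached by 3 higher in SN and 2 lower, 4.95% of the list, against 7.48% of all genes tested (4.01% higher and 3.46% lower). The list's share thus lay below that of all genes, and the genes named next are given as a description. The 3 higher genes were Nifk, a Ki-67 binding nucleolar protein, at 0.24, Rpf2, which brings the 5S particle to the 60S precursor, at 0.25, and Nol12, a nucleolar RNA-binding protein, at 0.25. For Rpf2 the values were 67.2 and 66.6 CPM in SN and 59.7 and 52.7 CPM in NSN. The 2 lower genes were Wdr18, a subunit of a late 60S maturation complex, and Noc2l, a homologue of a yeast 60S export factor, both at -0.32. Wdr18 had 68.9 and 74.2 CPM in SN and 88.8 and 90.0 CPM in NSN, without overlap, and an adjusted p of 0.662 by edgeR. Senp3, a nucleolar SUMO protease, differed by -0.30 with an unadjusted p of 0.0575 by edgeR.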

How the data were processed

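Poly(A)-captured RNA of 2 SN and 2 NSN libraries was analysed. Per the submitters' processing notes, HISAT2, Bowtie2, RSEM and the mm10 build were used; versions and roles are not given in the sources used here. The authors deposited estimated counts per RefSeq mRNA model, of which 59.8% are not whole, with TPM, FPKM and a depth-scaled normalized signal (normalized read counts, per the file headers), and their own log2 ratio and unadjusted p-value per model. FPKM served only to derive effective lengths, and the deposited normalized signal was checked but not tested.

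Estimated counts were summed per gene ID and rounded. Genes were filtered by filterByExpr, scaled by TMM and tested with the quasi-likelihood test of edgeR 4.0.16 in R 4.3.3 (robust, Benjamini-Hochberg over all genes or models, called at 0.05), which was tested on simulated data. Fold changes are log2 of SN over NSN, and their SE comes from the F statistic. A floor of 3 counts corresponds to 0.0810 to 0.0929 CPM, and floors and intervals cover counting error only or, in edgeR, the fitted spread. DESeq2 1.42.0, limma-voom (limma 3.58.1), log2(TPM + 1) and log2(TPM + 0.1), other scalings and filters, a replicate block and leaving out each library were alternatives. Motif and snoRNA host searches used RefSeq and GENCODE vM21 annotation.

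The members and lists were chosen with earlier results of these data known. Members named are the 2 of each role class with the smallest unadjusted p, a fixed set of core genes, the most and least abundant of each class, the 3 other pathway genes on each side and the 4 models with the smallest p; further subunits were named after their values were seen.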

Additional observations from a re-analysis of the deposited data

How the results depend on the processing

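Calls of all genes and of members depended on the test and on single libraries. Against 0 genes called, scaling by library size called 15, no filter on low counts 15, DESeq2 47 of the 672 it gave an adjusted p, log2(TPM + 1) 47 and log2(TPM + 0.1) 45, and leaving out a library 2 to 289. DESeq2 called 1471 transcript models. It called 1 member, and leaving out a library called 0 to 3. The labels do not say that replicate numbers pair the samples. The correlation of same-numbered deviations was 0.029, but with 2 libraries a class it is a single value and does not settle this. The replicate block, which called 44 genes, all higher in SN, and 0 members, thus rests on a shared number alone. The number of members higher in SN was 8 by library size and 3 on either TPM scale, and 26 to 38 when a library was left out. Their median log2 fold change was -0.099, -0.12 and -0.14 under those 3 scalings, where the median of all genes was -0.15, -0.13 and -0.18, and -0.016 to 0.057 when a library was left out. The log2 ratio of their sum was -0.047 by library size and -0.062 in TPM. Of 36 log2 results of single genes and models, 20 changed sign under some alternative; Ncl, Llph, Ubtf and Nol11 did not.

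With scaling by library size, log2(TPM + 1) and log2(TPM + 0.1), in that order, the fold change was -0.061, -0.074 and -0.084 for Bop1, -0.041, -0.072 and -0.073 for Dkc1, -0.015, -0.037 and -0.038 for Emg1, -0.034, -0.055 and -0.057 for Fbl, -0.074, -0.10 and -0.14 for Gar1, -0.081, -0.11 and -0.12 for Nolc1, -0.021, -0.032 and -0.032 for Nop10, and -0.051, -0.087 and -0.093 for Rrp9. On the TPM scales it was -0.012 and -0.012 for Ltv1 and -0.12 and -0.12 for Wdr12. Cyclic loess gave -0.0017 for Emg1, 0.018 for Pes1, 0.028 for Polr1b and 0.048 for Rrp12. DESeq2's size factors gave 0.012 for Nop56, 0.0079 for Nop58 and 0.0031 for Rrp12, as DESeq2 itself did, limma-voom 0.0035 for Nop56 and the replicate block 0.0031. Leaving out a library gave -0.025 to 0.21 for Bop1, -0.29 to 0.34 for Gar1, -0.16 to 0.074 for Heatr1, -0.0056 to 0.26 for Nop10, -0.63 to 0.17 for Nop2, -0.13 to 0.14 for Nop56, -0.047 to 0.037 for Nop58, -0.082 to 0.054 for Pes1, -0.26 to 0.064 for Pno1, -0.11 to 0.0047 for Polr1a, -0.26 to 0.20 for Polr1b, -0.24 to 0.0069 for Rrn3, -0.14 to 0.13 for Rrp12 and -0.051 to 0.22 for Rrp9. The cause was not tested.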
